A study of Homo sapiens with 7 samples.

Results

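DNA methylation was compared between cardiac mesoderm (CME) derived from HUES8 cells that lack TET1, TET2 and TET3 (TKO) and cardiac mesoderm derived from wild-type (WT) HUES8 cells. HUES8 is an established human embryonic stem cell line. The assay was enhanced reduced representation bisulfite sequencing (ERRBS), which samples CpG-rich DNA and reads methylated cytosine as C and unmethylated cytosine as T. The pair was formed by 2 of the 7 libraries of the series, TKO CME and WT CME, both from day 3 of differentiation. TKO CME and WT CME cells shared the same protocol, with CHIR99021, an activator of Wnt signalling, at the start and IWP2, a Wnt antagonist, added on day 3. The sources used here do not say whether the day 3 cells were taken before or after that addition. The other libraries were stem cells (SC, day 0) and cardiac progenitors (CP, day 8) of each genotype, and WT cardiomyocytes (CM, day 14). The labels give neither the number of TKO clones nor any replicate culture, and each group was 1 library.

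Each CpG was counted over its 2 strands, and CpGs with 10 or more reads in TKO CME and in WT CME were kept, 2067709 of the 2587280 CpGs listed in any library. The methylation level is the percent of C among C and T reads. These CpGs filled 102291 bins of 1 kb with 5 or more CpGs each. Median coverage per CpG was 80 reads in TKO CME and 47 reads in WT CME. The share of C at mitochondrial CpGs, a measure of cytosine that bisulfite left unconverted, was 0.387% in TKO CME and 1.44% in WT CME. The description of WT CME carries a library suffix, shared with WT SC, that TKO CME lacks, so genotype and a possible library set cannot be told apart. The files hold no expression values, so neither the knockout nor the mesoderm identity of the cells was checked.

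TET enzymes oxidise 5-methylcytosine, a step toward its replacement by unmethylated cytosine, and DNA methyltransferases act in the opposite direction. Canonical WNT signalling starts when a secreted WNT ligand binds a Frizzled receptor with its LRP co-receptor, which stabilises beta-catenin and lets it act with TCF and LEF factors on target genes. In the embryo and in cultured stem cells this pathway, together with Nodal and BMP signals, induces mesoderm marked by TBXT, MIXL1 and EOMES, and it is later held down while cardiac progenitors form. CpG-rich promoters of developmental genes are mostly free of methylation in stem cells.

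The starts of 13164 genes were found on the files' hg19 coordinates, by the spacing of CpGs in promoter sequences from RefSeq (GRCh38.p14). Promoter sequences, 250 bases before to 50 after the start, are shown for 3 genes with higher methylation at most or all of their readable CpGs in TKO CME (WNT16, LGR6 and POU3F4) and for 3 mesoderm or WNT genes that did not (TBXT, MIXL1 and DKK1). Capitals mark each CG called higher in TKO CME than in WT CME, at an adjusted p below 0.01 (Fisher's exact test, Benjamini-Hochberg adjustment over all CpGs) and 25 percentage points or more. A CG in lower case was either not called or not read 10 times in both libraries. The matched hg19 intervals are chr7:120968804-120969103 for WNT16, chr1:202162677-202162976 for LGR6, chrX:82763048-82763347 for POU3F4, chr6:166581290-166581589 for TBXT, chr1:226411115-226411414 for MIXL1 and chr10:54073791-54074090 for DKK1. TBXT lies on the minus strand and the others on the plus strand.
WNT16: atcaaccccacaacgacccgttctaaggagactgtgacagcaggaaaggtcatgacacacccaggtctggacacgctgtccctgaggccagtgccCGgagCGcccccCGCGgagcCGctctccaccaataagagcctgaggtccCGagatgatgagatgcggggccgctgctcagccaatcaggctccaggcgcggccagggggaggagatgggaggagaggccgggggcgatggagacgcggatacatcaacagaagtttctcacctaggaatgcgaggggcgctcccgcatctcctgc
LGR6: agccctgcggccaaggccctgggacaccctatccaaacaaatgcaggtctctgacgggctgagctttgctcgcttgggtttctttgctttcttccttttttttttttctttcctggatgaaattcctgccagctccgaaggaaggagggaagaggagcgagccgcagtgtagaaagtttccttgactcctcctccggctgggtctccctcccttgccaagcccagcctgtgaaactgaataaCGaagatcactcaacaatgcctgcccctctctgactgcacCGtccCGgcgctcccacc
POU3F4: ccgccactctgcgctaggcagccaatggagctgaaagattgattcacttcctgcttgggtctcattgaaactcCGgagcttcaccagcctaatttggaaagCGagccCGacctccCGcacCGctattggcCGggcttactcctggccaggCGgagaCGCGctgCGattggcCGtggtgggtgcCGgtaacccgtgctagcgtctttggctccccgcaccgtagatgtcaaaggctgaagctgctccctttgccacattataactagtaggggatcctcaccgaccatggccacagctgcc
TBXT: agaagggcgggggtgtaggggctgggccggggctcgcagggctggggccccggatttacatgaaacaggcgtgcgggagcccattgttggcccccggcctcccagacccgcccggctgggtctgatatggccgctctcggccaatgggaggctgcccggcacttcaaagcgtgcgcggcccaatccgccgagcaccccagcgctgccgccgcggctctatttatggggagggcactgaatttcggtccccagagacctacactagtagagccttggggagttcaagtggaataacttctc
MIXL1: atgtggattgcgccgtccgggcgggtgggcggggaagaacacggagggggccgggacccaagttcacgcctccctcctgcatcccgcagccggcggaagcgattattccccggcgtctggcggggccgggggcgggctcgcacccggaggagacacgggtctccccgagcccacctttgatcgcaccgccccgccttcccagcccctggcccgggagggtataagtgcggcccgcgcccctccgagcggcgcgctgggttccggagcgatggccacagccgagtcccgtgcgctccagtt
DKK1: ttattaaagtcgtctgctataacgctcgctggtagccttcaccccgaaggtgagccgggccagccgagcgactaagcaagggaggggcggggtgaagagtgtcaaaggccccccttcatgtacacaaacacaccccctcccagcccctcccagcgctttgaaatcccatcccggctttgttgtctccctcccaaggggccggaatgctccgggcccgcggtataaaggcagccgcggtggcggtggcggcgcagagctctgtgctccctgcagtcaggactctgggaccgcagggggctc
In the WNT16 sequence 6 of 20 CpGs were read in both libraries and all 6 were called, with summed levels of 92.8% in TKO CME and 29.5% in WT CME. LGR6 had 3 of 4 read CpGs called (46.6% in TKO CME and 4.30% in WT CME), and POU3F4 had 12 of 12 (90.5% in TKO CME and 0.855% in WT CME). Of the 17 read CpGs of TBXT, the 28 of MIXL1 and the 19 of DKK1 none was called. Those levels were 0.231% in TKO CME and 1.62% in WT CME for TBXT, 0.705% in TKO CME and 1.54% in WT CME for MIXL1, and 3.34% in TKO CME and 0.745% in WT CME for DKK1.

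Across all CpGs, fewer lay in the low range and more in the intermediate range in TKO CME. CpGs under 20% made up 43.6% in TKO CME and 48.1% in WT CME, those between 20% and 80% made up 14.1% in TKO CME and 9.52% in WT CME, and those over 80% made up 42.3% in TKO CME and 42.4% in WT CME. The mean over CpGs was 47.8% in TKO CME and 45.8% in WT CME, a difference of 2.03 points, but with each read weighted equally TKO CME lay below, at 34.5% in TKO CME and 35.3% in WT CME. By Fisher's exact test 110570 CpGs (5.35%) were called higher in TKO CME and 5987 (0.29%) lower. The CpGs called higher had a median level of 83.3% in TKO CME and 13.5% in WT CME. With 1 library per group the test compares these libraries. Counting error alone is covered, and several CpGs on the same read are not independent.

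The difference varied with the level in WT stem cells, a library with no part in this comparison, and was widest where that level was 20 to 50%. CpGs under 5% in WT SC averaged 4.27% in TKO CME and 1.36% in WT CME, and 4.04% of them were called higher. CpGs at 5 to 20% in WT SC averaged 24.5% in TKO CME and 9.16% in WT CME, and those at 20 to 50% averaged 62.9% in TKO CME and 36.9% in WT CME, with 23.7% and 42.5% called higher. CpGs at 50 to 80% in WT SC averaged 78.9% in TKO CME and 74.7% in WT CME, with 7.11% called higher. CpGs at 80 to 95% in WT SC averaged 87.4% in TKO CME and 91.0% in WT CME, and those at 95% or over averaged 90.3% in TKO CME and 94.0% in WT CME, with 0.515% and 0.353% called lower.

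In 1 kb bins, rises of this size again outnumbered falls. TKO CME was called higher in 5675 bins (5.55%) and lower in 118 bins (0.115%). The median level of the higher bins was 80.6% in TKO CME and 20.6% in WT CME, and that of the lower bins was 37.8% in TKO CME and 79.9% in WT CME. In 2464 bins the rise was 50 points or more, and in 333 bins it was 80 points or more. Small differences ran the other way: by adjusted p alone TKO CME was above WT CME in 15413 bins and below it in 26064. The median bin differed by -1.18 points, beside the mitochondrial shares of C given above, whose part was not tested. The higher bins formed 4608 runs of adjacent bins, of which 3756 were a single bin and 151 held 3 or more.

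**Figure D1:**
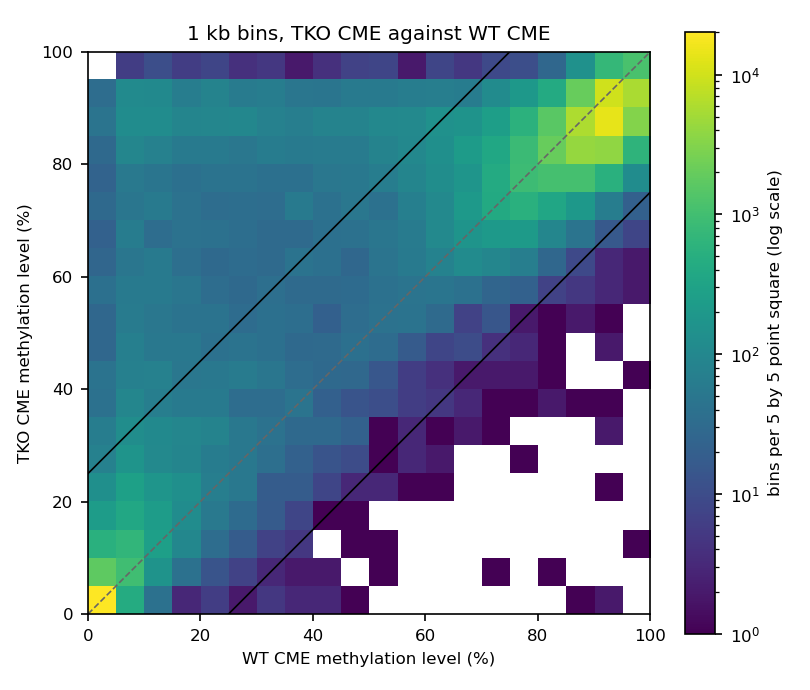
Levels of 102291 bins of 1 kb in TKO CME (vertical axis, percent) and WT CME (horizontal axis, percent), with colour giving the number of bins per square on a log scale, the dashed line marking equal levels and the solid lines 25 points to either side. Bins above the upper line spread over the whole range of WT levels that leaves room to rise, while few lie under the lower line.

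Promoters, taken as 1000 bases to each side of a placed start with 5 or more shared CpGs, could be tested for 12991 genes. TKO CME was called higher at 503 promoters (3.87%) and lower at 11 (0.0847%), and at 8983 promoters (69.1%) both libraries were under 5%. The higher promoters had a median level of 81.1% in TKO CME and 15.0% in WT CME. At another 881 promoters TKO CME was 5 to 25 points higher. Promoters with few CpGs were called more often: among those under 20% in WT CME, the share called higher was 13.3% with 4 to 9 CpGs in the 300-base promoter sequence, 10.1% with 10 to 14, 4.70% with 15 to 19, 3.17% with 20 to 29 and 1.37% with 30 or more. The TCF and LEF motif CTTTGAA or CTTTGAT was searched on both strands in promoters under 20% in WT CME. It was held by 12 of 311 called (3.86%) and 299 of 11421 uncalled promoters (2.62%), and by 2.79% of all tested promoters. A T-box motif was held by 4 of the called (1.29%) and 64 of the uncalled (0.560%). These counts are small and the differences were not tested. Such matches are letters and not shown binding sites.

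Within 5 kb of gene starts, the difference was smallest next to the start and larger on the flanks. Over all genes the mean CpG level within 250 bases of the nearest start was 6.10% in TKO CME and 4.59% in WT CME. From 1000 to 2000 bases it was 39.8% in TKO CME and 32.6% in WT CME, a difference of 7.19 points. It was 4.78 points from 2000 to 5000 bases and 1.43 points farther away. Among CpGs under 20% in WT CME alone, the differences were 1.19 points within 250 bases, 8.51 points from 1000 to 2000 bases, 12.0 points from 2000 to 5000 bases and 8.74 points farther away. CpGs nearest to WNT pathway genes differed by 1.35 points within 250 bases, 4.14 points from 250 to 1000 bases, 11.3 points from 1000 to 2000 bases and 16.3 points from 2000 to 5000 bases. CpGs nearest to mesoderm and cardiac genes differed by 1.18, 6.37, 11.4 and 10.1 points over the same distances, and without TBX1, the gene with the most called bins, by 0.523, 4.16, 4.79 and 6.31 points.

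**Figure D2:**
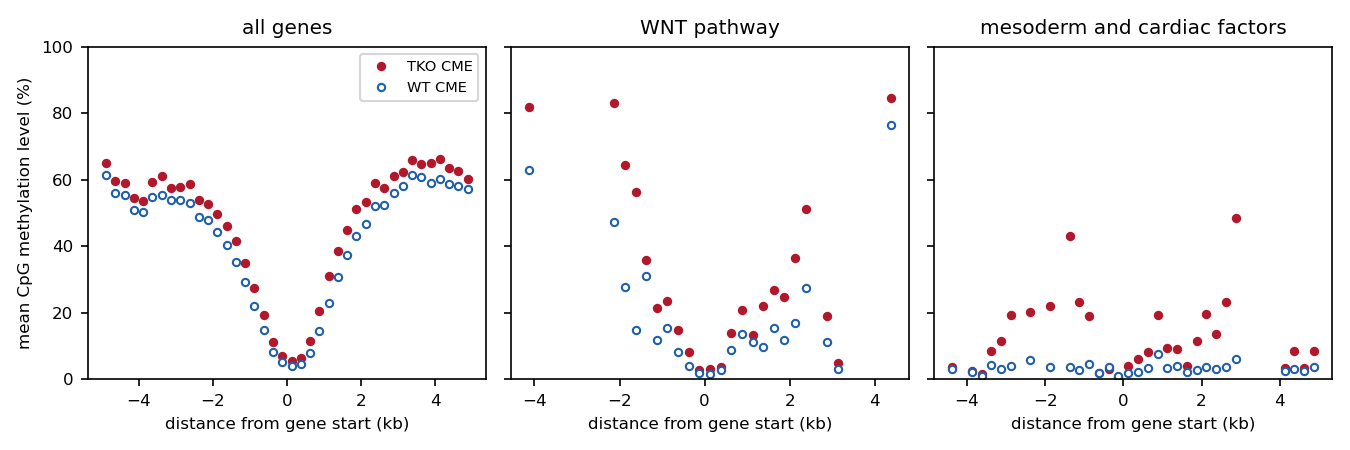
Mean CpG level (percent) in steps of 250 bases by distance from the nearest placed gene start (kb), for all genes, WNT pathway genes and mesoderm and cardiac genes, with filled points for TKO CME and open points for WT CME. Levels meet near the start, where all-gene means within 250 bases were 6.10% in TKO CME and 4.59% in WT CME, and separate on the flanks; steps with fewer than 20 CpGs are not drawn.

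The gene lists below hold 35 early mesoderm and cardiac factors, of which 19 had a measurable promoter, and 88 WNT pathway genes, of which 53 did. At their promoters most of these genes looked alike in both genotypes. Both libraries were under 5% at 15 of the 19 mesoderm and cardiac promoters and at 38 of the 53 WNT promoters. This held at 69.1% of all promoters. In these lists 1 and 2 promoters were called higher, where 3.87% of all promoters were. Median promoter differences were -0.386 points for mesoderm and cardiac genes and -0.378 points for WNT genes, against -0.686 points for all genes. Around the promoters, 6 of the 19 mesoderm and cardiac genes and 14 of the 53 WNT genes had a bin called higher within 5 kb of the start, where 11.8% of all genes with a bin did. This was not particular to these lists. Such a bin was also found at 2 of 5 measured endoderm, 1 of 5 ectoderm, 1 of 3 pluripotency and 3 of 5 Nodal, BMP and FGF genes. By bins, the shares were 14 of 101 (13.9%) for mesoderm and cardiac genes and 23 of 167 (13.8%) for WNT genes. Of bins within 5 kb of any placed start 6.68% were called higher. Most of the called mesoderm and cardiac bins lay at TBX1 and IRX4, so that share rests largely on these genes and not on the list as a whole. Among bins under 20% in WT CME the shares were 13.5% for mesoderm and cardiac genes, 11.5% for WNT genes and 5.36% for any start.

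**Figure D3:**
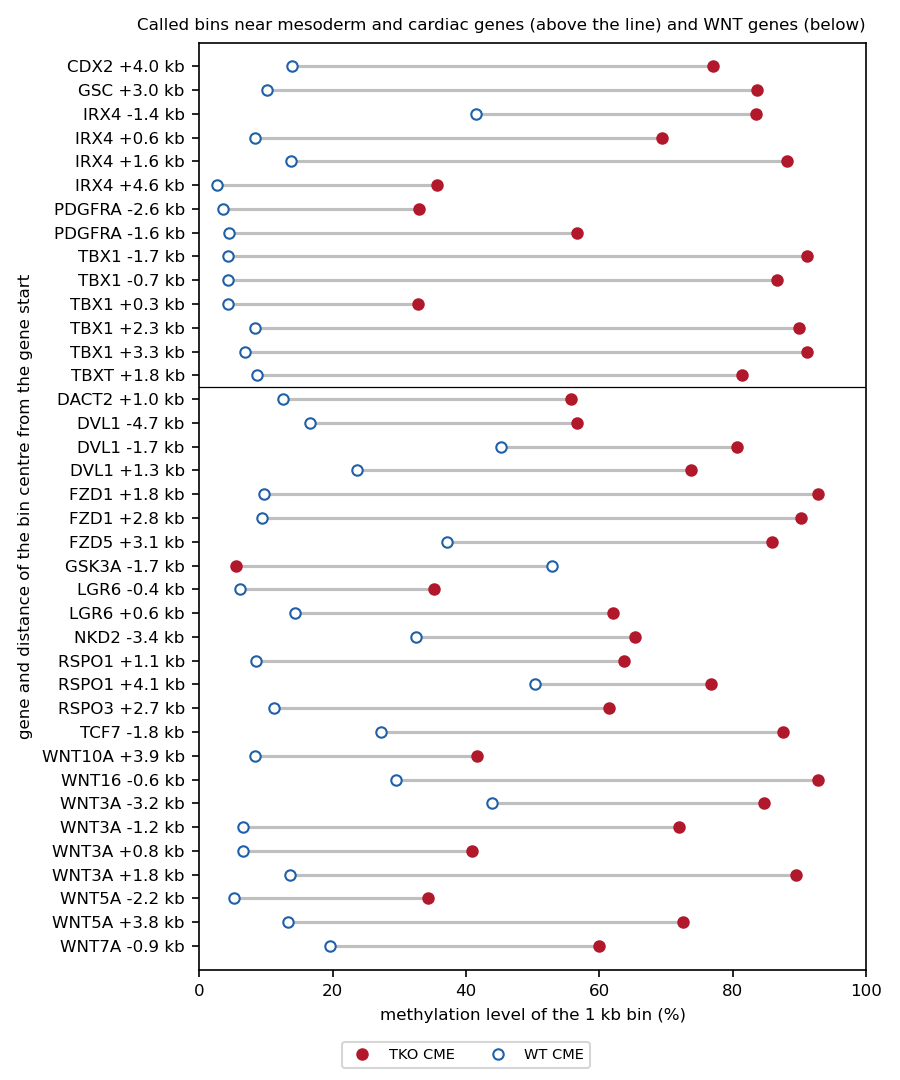
Levels (percent) of every 1 kb bin called within 5 kb of a mesoderm or cardiac gene (above the line) or a WNT pathway gene (below it), with filled points for TKO CME and open points for WT CME, labelled by gene and distance of the bin centre from its start. TKO CME is higher in all bins shown except that near GSK3A, at 5.52% in TKO CME and 52.8% in WT CME.

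Promoters of the defining early mesoderm factors were nearly unmethylated in TKO CME, as in WT CME. TBXT (brachyury), the T-box factor of the primitive streak, stood at 0.632% in TKO CME (95% Wilson interval 0.518 to 0.771) and 1.30% in WT CME (1.07 to 1.57). The homeobox gene MIXL1 stood at 1.75% in TKO CME and 2.48% in WT CME, and the T-box gene EOMES at 0.572% in TKO CME and 1.22% in WT CME. None of the 11 measured early mesoderm promoters was called in either direction, and 9 were under 5% in both libraries. Of all promoters 3.87% were called higher, 0.0847% were called lower and 69.1% were under 5% in both libraries. TBX6, a paraxial mesoderm factor, had the largest difference of the list, at 22.7% in TKO CME and 16.4% in WT CME, and is named here because of that value.

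Bins downstream or upstream of 4 early mesoderm genes were called higher in TKO CME. The bin centred 1839 bases downstream of the TBXT start held 7 CpGs at 81.4% in TKO CME and 8.62% in WT CME (adjusted p = 3.76e-112, Fisher's exact test). GSC, the organizer homeobox gene goosecoid, had 14 CpGs 2950 bases downstream at 83.7% in TKO CME and 10.1% in WT CME. CDX2, a caudal homeobox factor of the posterior embryo, had 6 CpGs 3952 bases downstream at 77.0% in TKO CME and 13.9% in WT CME. At these 3 genes the promoters stood under 5% in both libraries beside the methylated bin. PDGFRA, a receptor on cardiac and paraxial mesoderm, had a pair of bins 1627 and 2627 bases upstream, at 56.7% and 32.9% in TKO CME and 4.50% and 3.49% in WT CME.

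Among the 8 measured cardiac factors, TBX1 was called at its promoter. TBX1 is a T-box factor of the pharyngeal mesoderm and its heart progenitors. Its promoter on chromosome 22 held 50 CpGs at 44.5% in TKO CME (43.0 to 46.1, 4078 reads) and 4.52% in WT CME (3.94 to 5.19, 4248 reads), a difference of 40.0 points. The adjusted p of this promoter, as of several below for which none is printed, was smaller than the software can hold. Of the 7 measured bins within 5 kb, 5 were called. Those centred 1726 and 726 bases upstream stood at 91.2% and 86.7% in TKO CME and 4.23% and 4.23% in WT CME. Those 2274 and 3274 bases downstream stood at 90.0% and 91.1% in TKO CME and 8.36% and 6.87% in WT CME. The bin at the start itself had less methylation, at 32.8% in TKO CME and 4.30% in WT CME. Counted only from 250 bases before the start to 50 after it, the promoter held 5 CpGs at 25.4% in TKO CME and 3.40% in WT CME, 22.0 points apart and not called.

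IRX4, a ventricular homeobox gene, was the other cardiac gene with called bins. Its promoter, at 23.8% in TKO CME and 5.91% in WT CME, was not called, but 4 of 7 bins were. The bin 1559 bases downstream stood at 88.1% in TKO CME and 13.8% in WT CME, and that 559 bases downstream at 69.4% in TKO CME and 8.31% in WT CME. The promoters of GATA6, TBX20, HOPX, TBX18, HAND2 and TBX5, all cardiac transcription regulators, were at 0.314% to 4.99% in TKO CME and 1.06% to 3.18% in WT CME, with no called bin within 5 kb.

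**Figure D4:**
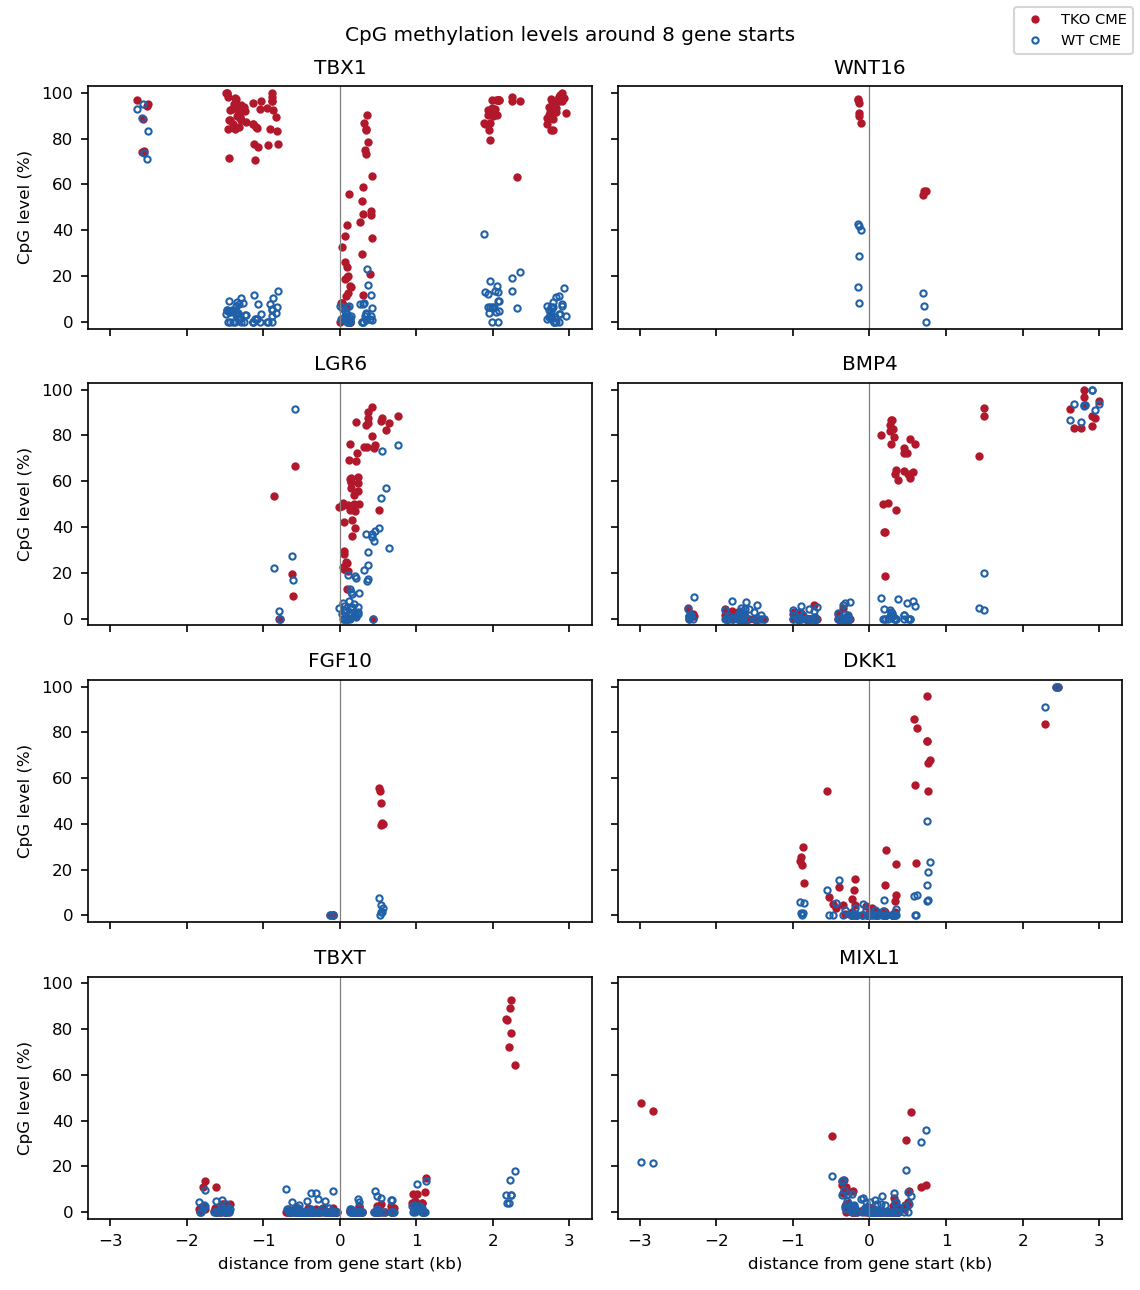
Level (percent) of each CpG with 10 or more reads in both libraries within 3 kb of 8 gene starts, by distance from the start (kb), with filled points for TKO CME and open points for WT CME. TBX1 is high in TKO CME on both sides of its start, BMP4 downstream of it, TBXT in the bin 1839 bases downstream, and at DKK1, TBXT and MIXL1 both libraries are low around the start.

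WNT ligands showed gain at WNT16 and on the flanks of several others. WNT16 held 9 shared CpGs in its promoter, at 86.7% in TKO CME (83.4 to 89.4, 488 reads) and 25.4% in WT CME (20.4 to 31.1, 256 reads), a difference of 61.3 points (adjusted p = 2.75e-62, Fisher's exact test). WNT3A, a canonical ligand of the primitive streak, was not called at its promoter, at 9.46% in TKO CME and 3.20% in WT CME. Yet 4 of its 5 bins were called. They were 1199 bases upstream (71.9% in TKO CME and 6.58% in WT CME), 3199 bases upstream (84.7% in TKO CME and 43.9% in WT CME), 801 bases downstream (41.0% in TKO CME and 6.57% in WT CME) and 1801 bases downstream (89.5% in TKO CME and 13.5% in WT CME). The WNT3A bin 1801 bases downstream rested on only 95 reads in TKO CME and 96 in WT CME. That 3199 bases upstream had 215 reads in TKO CME and 114 in WT CME. WNT3, the ligand needed for primitive streak formation in mice, had 1.27% in TKO CME and 1.84% in WT CME at its promoter and no called bin.

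Other ligands with called bins were WNT5A, WNT7A and WNT10A. WNT5A, which mostly signals without beta-catenin, stood at 0.476% in TKO CME and 0.824% in WT CME at its promoter, while bins 3834 bases downstream and 2166 bases upstream stood at 72.6% and 34.3% in TKO CME and 13.3% and 5.21% in WT CME. That upstream of WNT5A was at 23.8 points and uncalled when 20 reads per CpG were required. WNT7A had a bin 932 bases upstream at 59.9% in TKO CME and 19.6% in WT CME. WNT10A had a promoter at 27.5% in TKO CME and 8.00% in WT CME, 19.5 points apart and uncalled, and a bin 3926 bases downstream at 41.7% in TKO CME and 8.39% in WT CME. WNT1, named for its value, was at 22.1% in TKO CME and 10.3% in WT CME. Of 13 measured ligand promoters 12 were not called, where 3.87% of all promoters were called higher.

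Receptors and their agonists were represented by 14 measured genes, of which LGR6 was called at its promoter. LGR6 is a receptor for R-spondins, secreted proteins that strengthen WNT signalling. Its 59 promoter CpGs stood at 54.3% in TKO CME (53.0 to 55.6) and 13.0% in WT CME (12.1 to 14.0). Of its pair of called bins, that 427 bases upstream was 18.5 points apart and not called when CpG levels were averaged. FZD1, a Frizzled receptor, was unmethylated at its promoter (0.250% in TKO CME and 0.950% in WT CME), and 28 CpGs in the bin 1752 bases downstream stood at 92.8% in TKO CME and 9.75% in WT CME. The next bin, 2752 bases downstream, stood at 90.2% in TKO CME and 9.38% in WT CME. FZD5 had a bin 3130 bases downstream at 85.9% in TKO CME and 37.1% in WT CME. RSPO1 and RSPO3, R-spondin ligands, had bins 1064 and 2684 bases downstream at 63.7% and 61.4% in TKO CME and 8.54% and 11.1% in WT CME. RSPO1 had another bin, 4064 bases downstream, at 76.7% in TKO CME and 50.3% in WT CME, 26.4 points apart, which was not called with 20 reads per CpG (23.1 points) or with minus strand reads alone (24.5 points). The co-receptor LRP5 and the receptors ROR1, ROR2, RYK, LGR4, FZD4 and FZD8 had no called promoter or bin.

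No promoter of the 3 measured secreted inhibitors, the 8 feedback genes or the 15 intracellular transducers of the pathway was called. Of all promoters 3.87% were called higher and 0.0847% lower. DKK1, a secreted blocker of LRP co-receptors and a WNT target, stood at 9.08% in TKO CME (8.39 to 9.83) and 2.51% in WT CME (2.01 to 3.13), a difference of 6.57 points that was not called. That window was not even. DKK1 CpGs from 576 to 785 bases downstream of the start ranged from 23.1% to 95.8% in TKO CME and from 0.0% to 41.2% in WT CME. SFRP5 and WIF1, which bind WNT ligands, stood at 3.01% and 17.7% in TKO CME and 2.22% and 21.7% in WT CME. In the feedback list, DACT2 and NKD2, which act on Dishevelled, had bins 957 bases downstream (55.7% in TKO CME and 12.5% in WT CME) and 3417 bases upstream (65.4% in TKO CME and 32.4% in WT CME). The NKD2 bin was 18.0 points apart and not called when the levels of its CpGs were averaged in place of summing reads. All 15 measured intracellular transducers, among them beta-catenin (CTNNB1), APC, AXIN1, GSK3B and TCF7L2, were under 5% at the promoter in both libraries. Of all tested promoters 69.1% were. TCF7 and DVL1 had flanking bins called higher: TCF7, a TCF factor, 1804 bases upstream at 87.5% in TKO CME and 27.3% in WT CME, and the Dishevelled gene DVL1 in 3 bins of which that 1298 bases downstream stood at 73.7% in TKO CME and 23.7% in WT CME. GSK3A, a kinase of the beta-catenin destruction complex, had the only list bin called lower (0.115% of all bins, and 39 genes or 0.301% had such a bin), 1746 bases upstream, with 5 CpGs at 5.52% in TKO CME and 52.8% in WT CME (adjusted p = 2.81e-59, Fisher's exact test).

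Signals that act beside WNT in mesoderm induction were measured at 5 genes. They are named because their values stood out. BMP4, a ligand that promotes mesoderm, stood at 23.9% in TKO CME (22.9 to 24.9) and 1.51% in WT CME (1.23 to 1.85), and its bin 613 bases downstream held 26 CpGs at 71.8% in TKO CME and 2.45% in WT CME. The promoter itself, 22.4 points apart, was not called, but was with windows of 500 bases to each side (31.2 points) and with minus strand reads alone (27.6 points). CHRD, the BMP antagonist chordin, had a bin 1658 bases downstream at 85.3% in TKO CME and 8.70% in WT CME, with a promoter at 4.49% in TKO CME and 1.58% in WT CME. FGF10, a growth factor of heart and limb progenitors, was called with 9 CpGs at 39.4% in TKO CME (35.9 to 43.0) and 2.50% in WT CME (1.61 to 3.87), but the 3 CpGs within 250 bases of the start were at 0.0% in both libraries, so the rise rests on the other 6. Markers of other lineages had no promoter called (0 of 3 pluripotency, 0 of 5 endoderm and 0 of 5 ectoderm genes). With 3.87% of all promoters called higher, these counts do not set such small lists apart. Called bins within 5 kb were at KLF4, FOXA1, ONECUT1 and PAX6. PAX6, an eye and neural homeobox gene, had bins upstream at up to 78.0% in TKO CME and 6.84% in WT CME.

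The largest promoter gains were at genes outside the lists, named after their values were seen. POU3F4, a neural POU factor on the X chromosome, stood at 91.0% in TKO CME (88.7 to 92.8) and 1.45% in WT CME (0.868 to 2.43). FAM43A stood at 91.8% in TKO CME and 3.72% in WT CME, DMRT1, a testis differentiation factor, at 92.1% in TKO CME and 4.77% in WT CME, and LIPE, hormone-sensitive lipase, at 94.0% in TKO CME and 7.50% in WT CME. GCM2, a parathyroid factor, stood at 90.7% in TKO CME and 4.86% in WT CME, and TBX4, a T-box factor of hindlimb and lung mesoderm, at 91.3% in TKO CME (90.2 to 92.3) and 7.07% in WT CME. CFAP100 and its divergent transcript CFAP100-DT share a window, as LIPE does with LIPE-AS1, and cannot be separated.

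The 10 largest rises among bins with 10 or more CpGs included bins near FAM43A (93.7% in TKO CME and 1.94% in WT CME), MTNR1B (93.1% in TKO CME and 1.91% in WT CME) and MT1H, a metallothionein (92.4% in TKO CME and 2.47% in WT CME). A pair of bins on chromosome 1 lay near PRDM16-DT, and a pair on chromosome 4 between the starts of HMX1 and WDR1, where RefSeq lists many USP17L genes. Those genes are near-identical copies of each other. Their distance from the pair on chromosome 4 was not determined, so it is not known whether reads of this pair could be split between copies. The bin from 166422001 to 166423000 on chromosome 6 lay between the starts of PDE10A and TBXT with no protein-coding gene listed between them, and stood at 91.2% in TKO CME and 2.12% in WT CME.

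Losses of this size were few. The promoter of ZNF630, a zinc finger gene on the X chromosome, stood at 1.15% in TKO CME (0.697 to 1.89) and 90.8% in WT CME (87.9 to 93.0). Other lower promoters were those of the zinc finger genes ZNF582 (0.366% in TKO CME and 34.6% in WT CME), ZNF583 (0.286% in TKO CME and 32.7% in WT CME) and ZNF880 (10.5% in TKO CME and 40.7% in WT CME). ZNF582 shares its window with the divergent transcript ZNF582-DT, and ZSCAN5A overlaps 2 further listed promoters, so the 11 lower promoters are fewer separate regions. TXNRD2, a mitochondrial thioredoxin reductase, stood at 21.6% in TKO CME and 53.5% in WT CME. Among the 6 largest falls in bins were those between the placed starts of CD8A and KRCC1 (1.20% in TKO CME and 86.8% in WT CME), of ZNF627 and ZNF441 (9.03% in TKO CME and 71.8% in WT CME), and of GNA12 and FOXK1 (33.6% in TKO CME and 92.4% in WT CME). Over all CpGs listed for each library, the bin between CD8A and KRCC1 stood at 8.55% in TKO CME and 91.8% in WT CME. RefSeq lists RGPD1, RGPD2, PLGLB1 and PLGLB2 between those starts. Whether reads of that bin could be split between copies was not determined. The ZNF630 bin was low in TKO SC too, at 0.680% in TKO SC and 77.9% in WT SC. Not all of these losses were seen at CP, over promoter CpGs read in all libraries. TXNRD2 stood at 44.0% in TKO CP and 45.5% in WT CP, and ZNF880 at 78.8% in TKO CP and 48.6% in WT CP. The promoters of ZNF630, ZNF582 and ZNF583 were still lower in TKO CP than in WT CP.

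Most bins called higher at CME were also called higher in stem cells. WT SC carries the library suffix of WT CME and TKO SC lacks it. Genotype and a possible library set therefore cannot be told apart at SC either. Over 87131 bins shared by the SC, CME and CP libraries of both genotypes, 5178 were higher in TKO CME, of which 4796 were also higher in TKO SC, 5022 in TKO CP and 4685 at all 3 stages, while 45 were higher at CME alone. Of the called list bins, 13 of 14 mesoderm and cardiac bins and 20 of 22 WNT bins measured at SC differed by 25 points or more there too. At CP, 12 of 13 and 20 of 20 did. The bin downstream of TBXT stood at 69.9% in TKO SC and 5.86% in WT SC, and that at FZD1, 1752 bases downstream, at 87.6% in TKO SC and 9.21% in WT SC.

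Tested as a change of the TKO minus WT difference between stages (a z test on reads), few bins set CME apart from SC. The difference was larger at CME in 40 of 96462 bins (0.0415%) and smaller in 60 (0.0622%). Of 12943 promoters 0 passed in either direction at both thresholds. By adjusted p alone, with no minimum size, 352 were larger at CME and 927 smaller. At an unadjusted p below 0.05, 1230 were larger and 2029 smaller. A bin from 172662001 to 172663000 on chromosome 5 was among the 40 and is named for the gene listed in its interval. It lies between the placed starts of BNIP1 and STC2, where NKX2-5, the cardiac homeobox gene, is the only protein-coding gene listed. Its distance from NKX2-5 was not determined. It stood at 78.3% in TKO CME and 0.690% in WT CME, and at 41.7% in TKO SC and 0.806% in WT SC, a change of 36.7 points.

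Between CME and CP the genotype difference widened, with the library suffix of WT CME absent from WT CP, so stage and set cannot be told apart. It was larger at CP in 5156 of 89393 bins (5.77%) and smaller in 56 (0.0626%). In the 5156 bins the median level was 89.0% in TKO CP and 36.0% in WT CP, against 82.7% in TKO CME and 74.0% in WT CME, so the medians moved most in WT, which was lower at CP. At promoters 255 of 12875 were larger (1.98%) and 8 smaller (0.0621%), while by adjusted p alone, with no minimum size, 9957 were larger and 166 smaller. The mitochondrial share of C was 0.139% in TKO CP and 0.219% in WT CP, against the 1.44% of WT CME. With levels corrected by that share 5066 bins were larger and 60 smaller, and its part in the promoter counts was not tested. Among list bins called at CME, the widest change was upstream of PDGFRA, where the bin 2627 bases upstream stood at 82.9% in TKO CP and 0.412% in WT CP, and over the same CpGs at 33.1% in TKO CME and 3.53% in WT CME. WNT5A, 2166 bases upstream, stood at 71.8% in TKO CP and 1.17% in WT CP. FGF10's promoter stood at 71.7% in TKO CP and 0.205% in WT CP, over CpGs read in all libraries. In these 3 examples WT was low at both stages and TKO CP was above TKO CME.

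**Figure D5:**
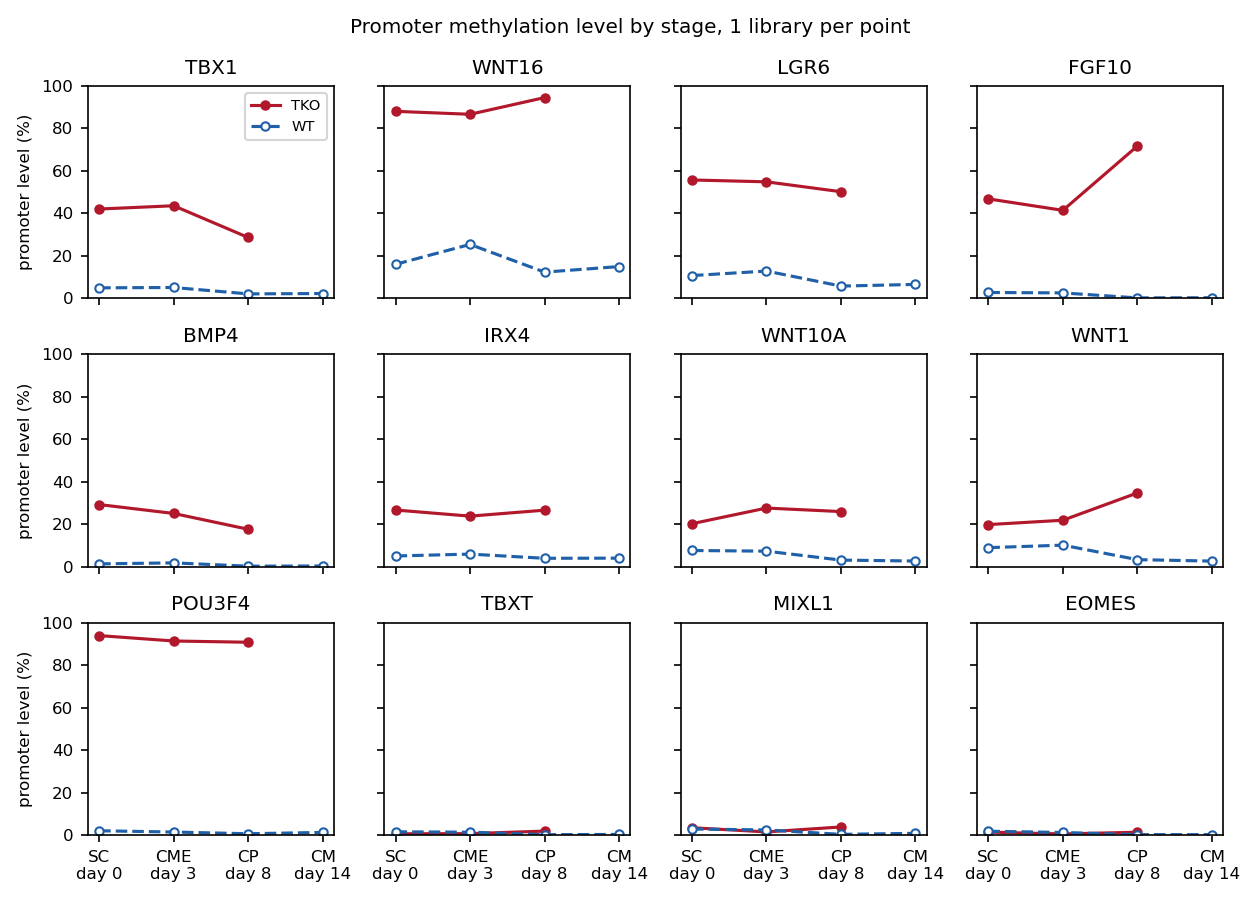
Promoter level (percent) by stage for 12 genes over CpGs with 10 or more reads in all 7 libraries, with filled points and solid lines for TKO and open points and dashed lines for WT, 1 library per point. TBX1, WNT16, LGR6 and POU3F4 are higher in TKO at each stage measured, while TBXT, MIXL1 and EOMES stay under 5% throughout.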

How the data were processed

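Alignment and methylation extraction were done at a core facility, per the labels' protocols. The build was hg19, per the submitters' processing notes, while the aligner and caller were not given in the sources used here. Per the file headers, a line of a deposited file is a stranded CpG cytosine. It holds the coverage, an unnormalized read count, and what percent of it the authors found to be C or T. Every listed cytosine had 10 or more reads. Coverage multiplied by the deposited percent gave whole reads in 100% of lines, within the rounding of the percentages. Total counts per library, summed over listed cytosines, ran from 120742115 (WT SC) to 213058905 (TKO CME), and WT CME had 141999649.

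From these counts, C and T reads of both strands were summed per CpG, and mitochondrial CpGs were set apart. Bins of 1 kb, promoter windows and CpGs were tested with Fisher's exact test (two-sided) and called at a Benjamini-Hochberg adjusted p below 0.01 over all features of that kind and 25 points or more. Changes between stages were tested with a z test on reads. No group had a replicate, so all tests and 95% Wilson intervals cover counting error only. The bin, CpG and stage tests were tested on simulated data.

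No hg19 genome or annotation was used. RefSeq promoter sequences (GRCh38.p14) were placed where the spacing of their CGs matched 10 or more listed CpGs, or 4 or more together with the distance to a neighbouring placed sequence, with 0.9 of the listed CpGs in the window matching. Of 35116 sequences 15882 were placed. Of the 12630 placed by 10 or more CpGs, 97.8% kept the table's distance to a neighbour. Each gene was given the start with most shared CpGs. Genes without a placed start (MESP1, AXIN2 and NKX2-5 among them) were not analysed here. Loci were planned to run to the gene end. Since gene ends in hg19 were not used here, bins within 5 kb of the start were taken in their place.

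The genes named are list genes with a called promoter or bin, and TBXT, MIXL1, EOMES, DKK1, WNT3 and WNT3A whether called or not. Bins named for their size were taken from the 10 largest rises and 6 largest falls with 10 or more CpGs, and not all of these are named. Other names were chosen after values were seen. The comparison, members and lists were chosen with earlier results of these data known. Scripts ran on numpy 2.4.6, scipy 1.17.1, pandas 2.3.3, numba 0.67.0, matplotlib 3.10.9 and Python 3.11.15.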

Additional observations from a re-analysis of the deposited data

Results flagged for a closer look

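Items were flagged where the TKO minus WT difference changed between stages (a z test on reads, 1 library per group). They were 3 list promoters, 7 list bins and a pair of bins on chromosome 5. List bins were looked at only where called at CME. Of all bins 5.77% had a larger difference at CP than at CME, as did 1.98% of all promoters. Larger at CME than at SC were 0.0415% of all bins. WT CP lacks the library suffix of WT CME, so stage and a possible library set cannot be told apart in the comparisons with CP.

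From CME to CP the difference grew by 31.5 points at the FGF10 promoter, by 27.9 points at that of ONECUT1, a homeobox gene of liver and neurons, and by 35.4 points at that of HNF4A, a hepatocyte nuclear factor. Over the CpGs read in both CP and both CME libraries, the difference of TKO minus WT at HNF4A was 40.7 points at CP and 5.34 points at CME (5 CpGs). Among list bins the growth was 29.7 points near DVL1 (1702 bases upstream), 27.8 points near FZD5, 41.6 points near WNT5A (2166 bases upstream), 52.9 and 39.7 points at the PDGFRA pair, 35.1 points near FGF10 and 26.5 points near ONECUT1.

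Bins outside the lists were flagged only between the placed starts of BNIP1 and STC2 on chromosome 5. NKX2-5 is the protein-coding gene that RefSeq lists there. The shared location of these bins follows from that rule and is not a result. That from 172662001 to 172663000 had a difference 36.7 points larger at CME than at SC. That from 172717001 to 172718000 stood at 90.8% in TKO CP and 16.4% in WT CP, and at 82.0% in TKO CME and 88.2% in WT CME, a change of 80.7 points.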

How the results depend on the processing

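No paired analysis was possible because each group was 1 library and no replicate numbers could be matched across groups, and for the same reason no replicate could be left out. The mean CpG difference of 2.03 points turned to -0.802 points with each read weighted equally. It was 2.29 points with 20 or more reads per CpG, 2.26 after correction by the mitochondrial share of C, 2.19 on plus strand reads, 2.20 on minus strand reads and 2.06 on autosomes. Plus strand reads alone called 66358 CpGs higher and 3138 lower, with 76 bins lower. Minus strand reads alone called 66452 CpGs higher and 3227 lower. A size of 40 points left 2373 CpGs lower, 3495 bins higher and 25 lower, 940 genes with a higher bin, and 327 promoters higher and 1 lower. With 10 or more CpGs per bin, 3643 bins were higher and 44 lower, and with 20 or more reads per CpG 74 bins were lower. Promoters placed by 10 or more CpGs included 7 lower, and within 2 kb of the start 9 WNT genes had a higher bin. For stage changes, 20 or more reads left 13 bins larger and 27 smaller at CME than SC, and 35 smaller at CP than CME. At 40 points these were 1 larger and 2 smaller at CME, and 1658 larger and 8 smaller at CP. The placement and 2 kb alternatives were chosen after seeing the data. Of 97 alternatives of counts 74 stayed within 1.5 times. Of 619 alternatives of 77 called bins and promoters, 592 kept the call and direction, 27 lost the call (20 of them at 40 points) and 0 turned round. Alternatives in which a bin or promoter could no longer be measured are not counted among the 619. The causes were not tested. Requiring 20 or more reads per CpG left 101007 CpGs and 5082 bins higher.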
